A study of Mus musculus with 24 samples.

Results

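The genes described here encode the proteasome: its subunits, its assembly factors, its activators and its inhibitor. They are the 50 protein-coding genes, of 55385 gene identifiers counted, whose GENCODE symbol begins with *Psm*, a letter from a to g and a digit. By role they comprise 14 genes of the constitutive 20S core (7 alpha and 7 beta subunits), 17 genes of the 19S cap (6 ATPases and 11 other subunits), 3 immunoproteasome subunits (*Psmb8*, *Psmb9* and *Psmb10*), 7 assembly factors and 6 activators or inhibitors. The remaining 3 are *Psma8* and *Psmb11*, core subunits known from testis and thymus, and *Psmc3ip*, a cofactor of meiotic recombination that carries the symbol but is no proteasome part. The 50 genes lie on 16 chromosomes, and the rule reads their symbols, not their values.

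The proteasome degrades proteins that carry ubiquitin chains. Alpha and beta subunits stack into the hollow 20S core, whose peptide bonds are cut by *Psmb5* (chymotrypsin-like activity), *Psmb6* (caspase-like) and *Psmb7* (trypsin-like), while the 19S cap binds the ubiquitin chain, removes it and unfolds the protein with its ring of ATPases. Cells exposed to interferon, and many immune cells at rest, build *Psmb8*, *Psmb9* and *Psmb10* into new cores in place of *Psmb5*, *Psmb6* and *Psmb7*, which gives the immunoproteasome that serves class I antigen presentation. Genes of the constitutive subunits are known to be induced together by the transcription factor NFE2L1 when proteasome activity falls short.

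RNA of the hippocampus was sequenced from 24 adult male and female mice aged 16 to 22 weeks, 4 in each of 6 groups, to follow gene expression from *Tsc1* deletion to epilepsy. All mice carried floxed *Tsc1* (*Tsc1f/f*) and received tamoxifen. The *Tsc1-Cre-* controls lacked the transgene *Tg(Camk2a-CreERT2)* and were taken on day 8, and *Tsc1-Cre+* mice, which carried it, were taken on day 4, 6, 8 or 13 after tamoxifen began. *Tsc1-Cre+*-Rap 4 mice also carried it, received rapamycin, an inhibitor of the mTOR kinase that TSC1 restrains, at 10 mg/kg from day 4, and were taken on day 13. No *Tsc1-Cre-* mouse received rapamycin, and all controls were taken on day 8. Between rapamycin-treated mice and controls, the drug, the deletion and the day therefore cannot be told apart. On days 4, 6 and 13 the day also differed from that of the controls. The *Camk2a* promoter drives Cre in excitatory forebrain neurons, so interneurons, glia and vessel cells kept *Tsc1*, and the tissue contained all of these cells. Since whole tissue was measured, fewer cells of a type and less RNA per cell cannot be told apart. Mice are named by their letter, A to D, within a group, and the same letter names different animals in different groups.

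Promoter sequence is shown for the catalytic subunits *Psmb5*, *Psmb6*, *Psmb8* and *Psmb9*, since the results turn on constitutive subunits and those that can replace them. *Psmd9* and *Psme4* are shown for their antioxidant response element, which was in 6 of 45 promoters of members. Each window shown holds a match to a motif searched for here, so the windows do not stand for all members. *Psmb10* held no match to any of these motifs and is not shown. RefSeq on GRCm38.p6 held an entry for 42 of the 50 genes, with 45 promoters that span 250 bases before to 50 bases after the gene start. Both strands were searched for the antioxidant response element TGACNNNGC, to which NFE2L1 binds, for the CCAAT box, for the interferon response core GAAANNGAA and for the interferon gamma element TTCNNNGAA, each by itself, so that matches may overlap. Capitals mark a match to the motif named with the gene.
Psmb5 (chr14:54618023-54618145, minus strand, antioxidant response element): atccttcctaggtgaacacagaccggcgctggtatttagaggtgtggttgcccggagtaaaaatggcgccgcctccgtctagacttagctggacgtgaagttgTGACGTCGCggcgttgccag
Psmb6 (chr11:70525207-70525356, plus strand, antioxidant response element): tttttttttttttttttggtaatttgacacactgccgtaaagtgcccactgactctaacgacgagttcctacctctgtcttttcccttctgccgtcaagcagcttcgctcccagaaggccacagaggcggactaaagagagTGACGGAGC
Psmd9 (chr5:123228150-123228176, plus strand, antioxidant response element): tctagccggTGACCCCGCccacttcca
Psme4 (chr11:30771759-30771785, plus strand, antioxidant response element on the opposite strand): gctgcggctGCAGCGTCAccagaagag
Psmb8 (chr17:34198089-34198115, plus strand, interferon gamma element): cctccgctgTTCCCAGAAgatgccccc
Psmb9 (chr17:34187323-34187349, minus strand, CCAAT box on the opposite strand): cgcagccgctgATTGGaaagccgagcc

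The antioxidant response element was in 4 of 27 promoters of constitutive 20S and 19S subunits (14.8%), a share near the 12.4% of all 32851 promoters. The CCAAT box was in 37.0% of the 27 against 37.4% of all promoters, the interferon response core in 14.8% against 8.56%, and TTCNNNGAA in 3.70% against 8.30%. Of the 3 immunoproteasome promoters, that of *Psmb8* held TTCNNNGAA, that of *Psmb9* held the CCAAT box, and none held the antioxidant response element or the interferon response core in this window. A match describes the letters of the window and is not a measured binding site. *Psmb7* and *Psmb2* have no entry.

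Total counts per mouse ran from 28208561 to 126435936, the highest in mouse B of day 13 and the lowest in mouse A of the rapamycin group. *Tsc1* itself stood at 102.6 to 109.4 CPM (counts scaled to library size with TMM factors) in the controls, at 57.4 to 81.7 in the 16 untreated *Tsc1-Cre+* mice and at 66.0 to 68.9 under rapamycin, and it was called lower in each comparison with control. Markers of hippocampal neurons were abundant in every group, their 7 genes summing to 3621 to 5113 CPM, while 5 T cell markers summed to at most 1.599 CPM. Control and day 8 mice were numbered in shared series, whereas mice of each remaining group were numbered in others, so that series and time point cannot be told apart for them. All comparisons with control share the same 4 control mice. Calls are those of edgeR's quasi-likelihood test with the p adjusted over every gene tested and a limit of 0.05, and p-values measure only the spread between these mice. The smaller set of genes that also passed an absolute log2 fold change of 0.5 is given beside it.

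In the control hippocampus constitutive subunits took the highest places of the set per kilobase of exon, and the activators *Psme3* (16.35 CPM per kb) and *Psme4* (14.4) lay among the lower ones. *Psmc5*, an ATPase of the cap, led at 48.1 ± 1.96 CPM per kb (SD, n = 4), followed by *Psmd2*, a scaffold of the 19S base, at 41.4 ± 1.497, which lay within the SDs of *Psmc1* at 40.9 ± 1.02. Among the catalytic subunits *Psmb5* stood at 27.8 ± 0.983 and *Psmb6* at 25.4 ± 0.383 CPM per kb, and *Psmb7* at 11.1 ± 0.416. This order rests on the joined length of all annotated exons, 899 bases for *Psmb5*, 1872 for *Psmb6* and 3421 for *Psmb7*. Without division by length *Psmb6* stood at 47.6 CPM and *Psmb7* at 37.8, and *Psmb7* lay above *Psmb5* in every control mouse. *Psmb10* reached 8.25 ± 0.608 CPM per kb, the 33rd place of 50 and above the cap gene *Psmd11* at 6.68, whereas *Psmb8* stood at 0.523 ± 0.0521 and *Psmb9* at 0.294 ± 0.0230, the 47th and 48th places. Assembly factors lay between these, from 1.37 CPM per kb for *Psmg3* to 5.84 for *Psmd5*. All 50 genes together took 0.210% to 0.217% of the counts of a control mouse, 0.241% to 0.3001% on day 13 and 0.200% to 0.223% under rapamycin.

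Genes of the 20S core rose in the *Tsc1-Cre+* hippocampus from day 6 on and stood highest on day 13. The median log2 fold change of the 14 core genes against control was 0.04 at day 4, and it grew to 0.19 at day 6, to 0.31 at day 8 and to 0.53 at day 13, where the median of all genes tested lay between -0.04 and -0.00 on these days. None of the 14 was called on day 4 by edgeR (1 at an unadjusted p under 0.05), 10 rose by day 6, 11 by day 8 and all 14 by day 13, 9 of them past the fold minimum. Expressed as the mean log2 CPM over the 14 genes minus the control mean, mice A to D stood at 0.02, -0.01, -0.05 and 0.04 in the control group. The day 6 mice stood at 0.20, 0.19, 0.22 and 0.13, those of day 8 at 0.37, 0.18, 0.44 and 0.23, and those of day 13 at 0.53, 0.75, 0.42 and 0.49. Every mouse of days 6, 8 and 13 therefore lay above every control mouse. In this measure mice of day 6 and day 8 overlapped, and so did mice of day 8 and day 13. Mouse C of day 8 (0.44) lay above mouse C of day 13 (0.42). Among protein-coding genes with a mean of at least 10 CPM the median change was 0.02, 0.05 and 0.10 on days 6, 8 and 13. Markers of other cells moved on the same days. On day 6 all 5 astrocyte markers were called lower (median -0.33), as were 6 of 10 microglia markers (median -0.28), 1 of 4 endothelial and 0 of 4 oligodendrocyte markers (3 at an unadjusted p under 0.05), and 1 of 7 neuron markers rose (*Slc17a7*, the vesicular glutamate transporter, 0.28). On day 8, 2 of 5 astrocyte markers were called lower, while 3 had positive values (median 0.00, highest *Gfap* at 1.28, not called). Of 10 microglia markers 2 were called lower and 3 had positive values (median -0.12), and 1 of 4 oligodendrocyte markers was called lower (median -0.35). Among the 7 neuron markers *Slc17a7* was called higher (0.44), while 5 had negative values (median -0.07). On day 13 *Gfap*, an astrocyte filament gene, rose by 1.91 and *Gja1*, an astrocyte connexin, fell by 0.93, 2 microglia markers and 1 endothelial marker rose with *Slc17a7* (0.73), and 0 oligodendrocyte and 0 choroid plexus markers were called by edgeR or had an unadjusted p under 0.05. Of the 7 neuron markers, 4 had negative values on day 13 (median -0.01). Choroid plexus markers summed to 20.1 to 1519 CPM in the controls, highest in mouse B, and to 15.2 to 355.6 CPM on day 13. With this spread between mice the test cannot decide whether the choroid plexus markers differed. The part of all these cells in the rise was not tested.

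**Figure D1:**
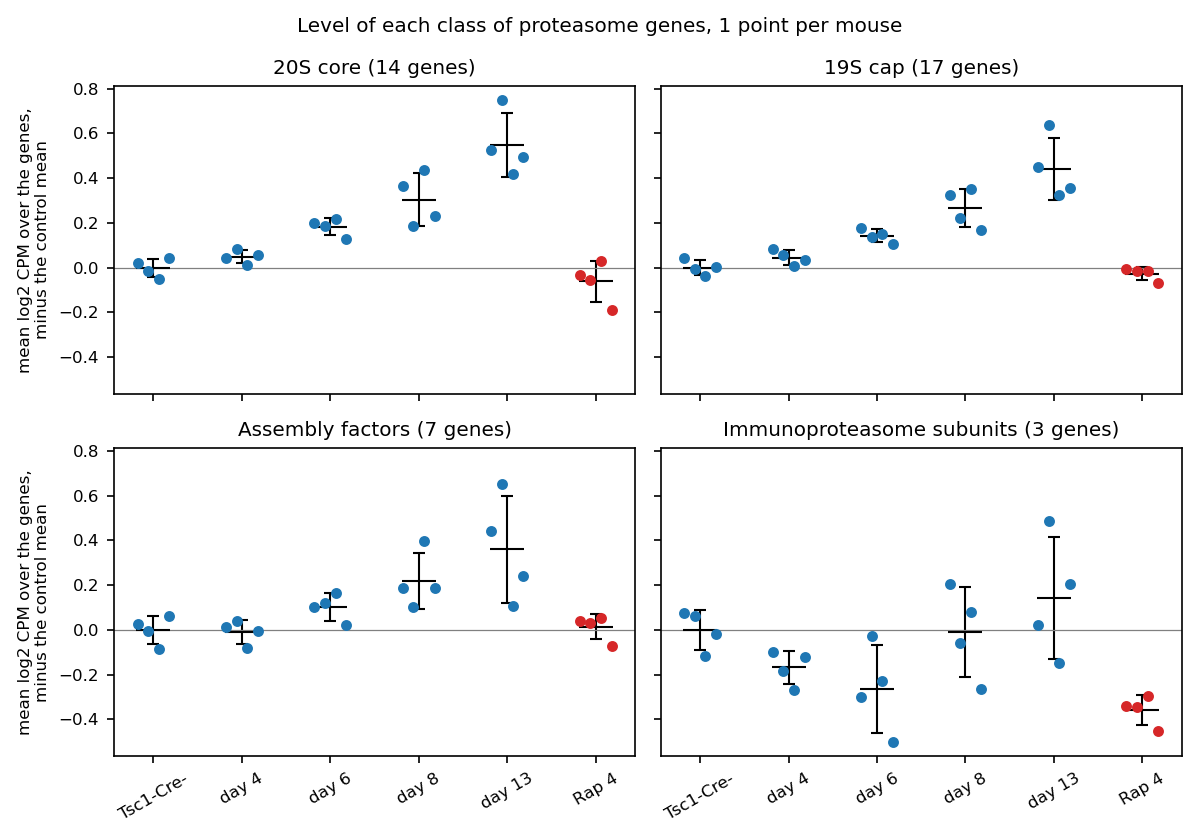
Mean log2 CPM over the genes of a class minus the control mean (y axis), for the 20S core, the 19S cap, the assembly factors and the immunoproteasome subunits; each point is a mouse, bars are the group mean ± SD (n = 4), and red points are rapamycin-treated mice. Core and cap climb from day 6 to day 13, where the core reaches 0.42 to 0.75, and lie near the control level under rapamycin; the immunoproteasome mean is -0.265 on day 6, -0.01 on day 8, 0.14 on day 13 and -0.36 under rapamycin, with day 13 mice from -0.15 to 0.49 on both sides of the control mean.

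*Psmb2*, a beta subunit without catalytic activity of its own, changed most on day 8 and on day 13 among the called genes. Its level in mice A to D was 32.2, 30.7, 29.6 and 31.1 CPM in the controls, 46.2, 37.6, 49.5 and 39.7 on day 8, and 60.6, 66.4, 44.7 and 50.5 on day 13. All *Tsc1-Cre+* mice of both days lay above all controls, and the lowest day 13 mouse lay below the highest day 8 mouse. The log2 fold change was 0.47 ± 0.083 (SE) on day 8 (adjusted p = 0.0049) and 0.82 ± 0.11 on day 13 (adjusted p = 0.00125). *Psma7*, an alpha subunit, rose by 0.61 ± 0.085 on day 13 (adjusted p = 0.00154), and *Psma3*, another alpha subunit, by 0.37 ± 0.066 on day 8 (adjusted p = 0.00553). The smallest change of a core gene on day 13 was that of *Psmb1*, at 0.33 ± 0.084 (adjusted p = 0.0183).

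On day 6 the changes of the core were small, and the mice of the leading genes did not overlap with the controls. *Psmb5*, the chymotrypsin-like subunit, stood at 26.1, 24.5, 24.1 and 25.3 CPM in control mice and at 30.2, 30.7, 29.1 and 29.2 on day 6, a log2 fold change of 0.24 ± 0.049 (adjusted p = 0.00647). *Psmb4*, a beta subunit, rose by 0.23 ± 0.042 (adjusted p = 0.00403). On day 13 *Psmb5* reached 35.9, 41.1, 35.2 and 37.6 CPM, 47.9% above control. The catalytic *Psmb6* and *Psmb7* rose by 0.60 ± 0.098 and 0.49 ± 0.063 on day 13 (adjusted p = 0.00289 and 0.00109).

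The 19S cap followed the same course with a somewhat lower median. Its 17 genes had a median log2 fold change of 0.04, 0.14, 0.26 and 0.45 at days 4, 6, 8 and 13, with 2, 8, 12 and 16 genes called higher and none lower. Relative to the control mean, the cap stood at 0.18, 0.14, 0.15 and 0.11 in mice A to D of day 6, at 0.32, 0.22, 0.35 and 0.17 on day 8 and at 0.45, 0.64, 0.33 and 0.35 on day 13, against -0.04 to 0.04 in the controls. The core exceeded the cap within each day 13 mouse by 0.0768, 0.113, 0.0943 and 0.141, where this difference ran from -0.0224 to 0.0392 in the control mice. Scores over chosen genes are given as a description, with no test.

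*Psmd6*, a subunit of the 19S lid, showed the largest called rise on day 6. It stood at 52.4, 48.6, 48.6 and 50.3 CPM in the controls and at 62.3, 59.8, 58.6 and 58.8 on day 6, without overlap, which gave a log2 fold change of 0.25 ± 0.039 (adjusted p = 0.00148). *Psmc4*, an ATPase of the 19S base, rose by 0.40 ± 0.059 on day 8 (adjusted p = 0.00211), to 73.5, 68.3, 76.6 and 64.3 CPM from 53.5, 52.4, 51.2 and 55.5. On day 13 the 6 ATPases ranged from 0.30 for *Psmc5* to 0.60 for *Psmc6*, and all 6 were called. *Psmd14*, the deubiquitinase of the lid, rose by 0.42 ± 0.066 (adjusted p = 0.00242), and *Psmd4*, an intrinsic ubiquitin receptor, by 0.45 ± 0.080 (adjusted p = 0.00433).

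The lid subunit *Psmd11* departed from this course. Mice A to D stood at 43.6, 44.1, 41.1 and 42.0 CPM in the controls, at 52.9, 50.9, 48.2 and 48.0 in the day 4 group, at 46.97, 46.4, 51.1 and 47.6 on day 6, at 45.7, 51.3, 43.9 and 39.4 on day 8 and at 56.4, 44.9, 38.4 and 48.1 on day 13. Days 4 and 6 lay wholly above control, whereas days 8 and 13 overlapped it, and day 13 was the widest of all groups. *Psmd11* was called on day 4 (0.23 ± 0.045, adjusted p = 0.0158) and day 6 (0.16 ± 0.043, adjusted p = 0.0317), but not on day 8 (0.07 ± 0.074, adjusted p = 0.601) or day 13 (0.12 ± 0.11, adjusted p = 0.44). It was the only gene among the 31 of core and cap that did not pass the test across all 6 groups (adjusted p = 0.0909). The other lid gene called on day 4 was *Psmd3*, at 0.13 ± 0.030 (adjusted p = 0.0304).

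The members' counts are set here against the whole table. On day 4, 2 of 49 genes tested were called higher and 1 lower, where 2.61% of all 25308 genes tested were called higher and 1.56% lower, so the count lay near the background; none passed the fold minimum, which 0.68% of all genes did. On day 6, 19 of 50 were called higher, beside 6.24% of all genes, none lower, beside 3.81%, and none past the fold minimum, beside 1.32%. On day 8, 26 of 50 were higher, beside 8.41%, none was lower, beside 4.87%, and none passed the fold minimum, beside 3.99%. On day 13, 37 of 50 were higher, beside 15.6%, none was lower, beside 11.3%, and 16 passed the fold minimum, beside 16.5%. Most members are abundant protein-coding genes, and of protein-coding genes with a mean of at least 10 CPM a larger share was called higher than of all genes, 1372 of 9840 on day 6, 1759 of 9838 on day 8 and 2852 of 9838 on day 13.

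These counts depended on the fit for the early days. With a single edgeR fit of all 24 mice, in which all groups share the estimate of the spread, 0 members were called for day 4, beside 0.192% of all genes in that fit, and 1 for day 6, beside 1.08%, so that the day 6 count lay near the background. In the same fit day 8 had 26, beside 11.7%, and day 13 had 40 (38 higher and 2 lower, *Psme1* and *Psmc3ip*), beside 38.9%. Without mouse C of day 6, 12 members were called on that day. On day 13 the scaling also mattered: with library totals in place of TMM factors the median of all genes moved to -0.16 and that of the 31 core and cap genes to 0.38, with 24 of the 31 called.

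The rise was shared by nearly all of the 31 core and cap genes rather than carried by a few. Group means increased from control to day 6, day 8 and day 13 in 29 of the 31, the exceptions being *Psma6* and *Psmd11*. In single mice, 25 to 30 of the 31 genes exceeded all 4 controls on day 6, 28 to 31 on day 8 and 30 to 31 on day 13, against 7 to 18 on day 4. Rising means and genes outside the control range were counted for the 31 genes only, not over all genes. All 31 had positive log2 fold changes on days 6, 8 and 13. Of protein-coding genes with a mean of at least 10 CPM, 5665 of 9840, 5985 of 9838 and 6075 of 9838 did. Mouse B of day 13, the deepest library, was the highest of its group in 30 of the 31 genes, and without it 35 members were still called on that day. Of all members, 16 were called higher on days 6, 8 and 13 alike: the core genes *Psma2*, *Psma3*, *Psma4*, *Psma7*, *Psmb2*, *Psmb4*, *Psmb5*, *Psmb6* and *Psmb7*, the cap genes *Psmc4*, *Psmd2*, *Psmd4*, *Psmd6*, *Psmd8* and *Psmd14*, and the activator *Psme3*. *Psmd3* was called higher on days 4, 6 and 13.

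**Figure D2:**
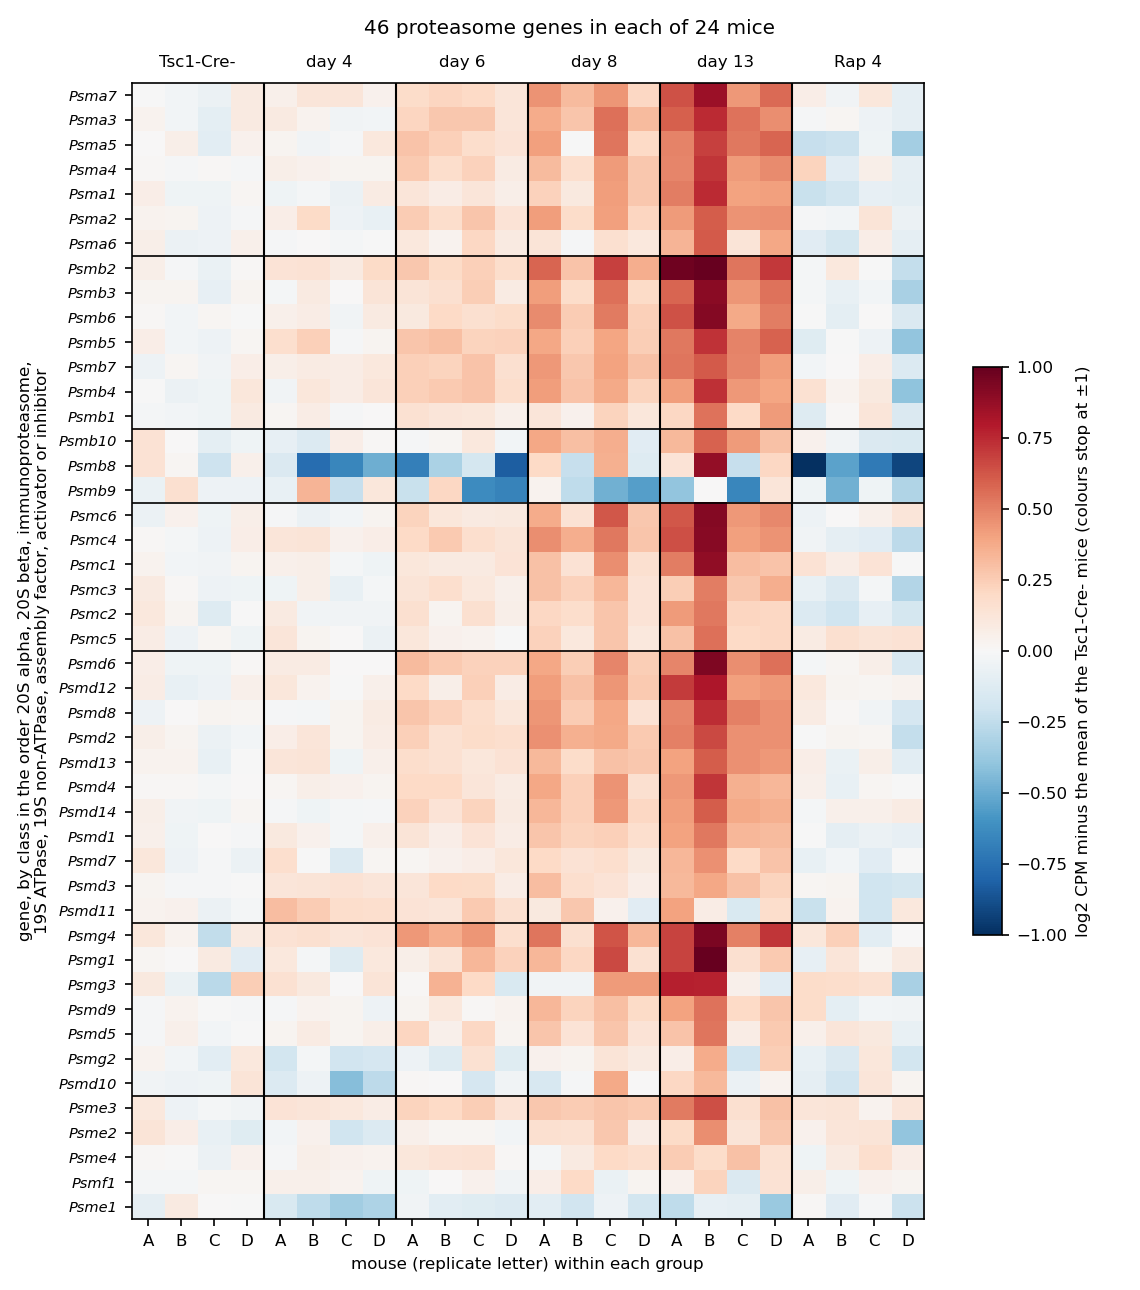
Log2 CPM minus the mean of the 4 control mice (colour, stopping at -1 and 1) for 46 genes in rows, grouped by class, and the 24 mice in columns; *Psmc3ip*, *Psme2b*, *Psma8* and *Psmb11* are left out. Red deepens from day 6 to day 13 through core and cap, with mouse B of day 13 the deepest, and fades in the rapamycin columns, whereas the rows of *Psmb8*, *Psmb9* and *Psme1* hold blue in several groups.

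Under rapamycin the constitutive subunits stood at the level of the untreated day 8 controls. None of the 31 core and cap genes was called between *Tsc1-Cre+*-Rap 4 mice and controls by edgeR or by DESeq2, 6 had an unadjusted p under 0.05, and their median log2 fold change was -0.03, with 8 genes positive and 23 negative. The core score of the rapamycin mice was -0.03, -0.05, 0.03 and -0.19 and the cap score -0.01, -0.02, -0.02 and -0.07, which overlapped the controls; mouse D was the lowest in both, with 22 of the 31 genes below all controls. The gene nearest to a difference was *Psma5* at -0.20 ± 0.069 (adjusted p = 0.127), and *Psmc5* stood at 0.13 ± 0.044 (adjusted p = 0.134). Among all 49 members tested, none was called higher, beside 1.26% of all genes, and 1 was called lower and past the fold minimum, beside 2.31% lower and 1.41% past the fold minimum. That gene was *Psmb8*.

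Compared with untreated mice of the same day, rapamycin-treated mice had lower levels of nearly every constitutive subunit. Of 49 members tested 35 were lower on rapamycin than on day 13, beside 17.7% of all genes, none was higher, beside 13.1%, and 19 passed the fold minimum, beside 21.1%. All 14 core genes and 15 of the 17 cap genes were among the 35, with medians of -0.61 and -0.47, while *Psmc5* (-0.18 ± 0.081, adjusted p = 0.111) and *Psmd11* (-0.19 ± 0.13, adjusted p = 0.267) were not called. *Psmb2* stood at 30.4, 33.2, 30.7 and 26.2 CPM under rapamycin, below all day 13 mice, a log2 difference of -0.87 ± 0.12 (adjusted p = 0.00126). *Psma5* followed at -0.77 ± 0.087 (adjusted p = 0.000512). Since day 13 enters both comparisons, the 34 genes that were higher on day 13 than in control and lower on rapamycin than on day 13 rest on the same 4 mice. With library totals the median of all genes in this comparison moved to 0.16 and that of core and cap to -0.37.

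**Figure D3:**
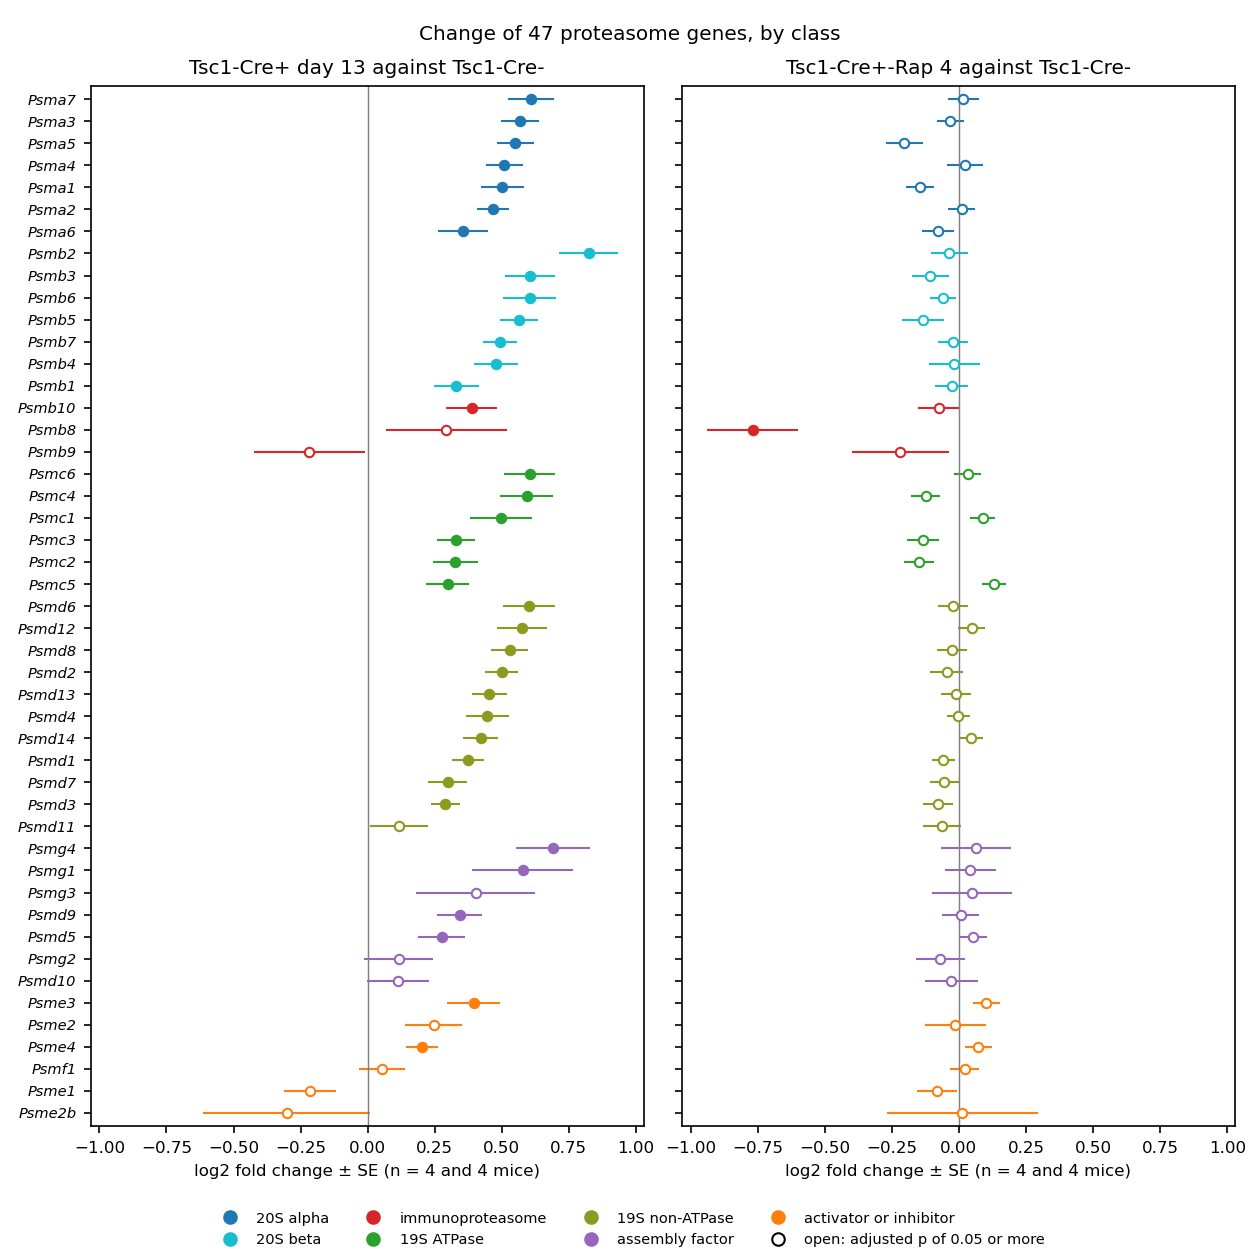
Log2 fold change ± SE (x axis, n = 4 and 4 mice) of 47 genes against control on day 13 (left) and under rapamycin (right), coloured by class and ordered by the day 13 value within a class; open circles have an adjusted p of 0.05 or more. On day 13 core and cap genes lie between 0.12 and 0.82, and under rapamycin they lie between -0.20 and 0.13, with *Psmb8* alone filled, at -0.77.

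In no comparison were all 3 immunoproteasome subunits called. *Psmb8* and *Psmb9*, which lie 9956 bases apart on chromosome 17 (chr17:34197721-34201454 and chr17:34181987-34187764), were scarce, with 25 to 380 and 24 to 126 counts per mouse, and *Psmb10* (chr8:105935735-105938444) had 416 to 2475 counts. On day 13, 1 of the 3 was called, *Psmb10*, at 0.39 ± 0.095 (adjusted p = 0.0162), whereas *Psmb8* stood at 0.29 ± 0.22 (adjusted p = 0.354) and *Psmb9* at -0.22 ± 0.21 (adjusted p = 0.458). None was called on day 4, 6 or 8 by edgeR or DESeq2, and at an unadjusted p under 0.05 there were 1 on day 4, 1 on day 6 and 0 on day 8. Across all 6 groups *Psmb8* (adjusted p = 0.00115) and *Psmb10* (adjusted p = 0.000659) passed the F test and *Psmb9* did not (adjusted p = 0.536).

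*Psmb10* was called in the same direction as the constitutive genes in both comparisons with day 13. It stood at 15.5, 14.1, 13.1 and 13.6 CPM in controls, at 18.3, 17.3, 18.1 and 13.0 on day 8, at 17.6, 21.1, 18.9 and 17.2 on day 13 and at 14.4, 13.7, 12.7 and 12.6 under rapamycin. All day 13 mice exceeded all controls and all rapamycin mice, and 1 of the day 8 mice fell below the controls. It was lower on rapamycin than on day 13 by 0.47 ± 0.099 on the log2 scale (adjusted p = 0.00664). The day 13 call against control was lost with library totals, at 0.27 and an adjusted p of 0.0589, and also when control mouse B, C or D was left out.

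*Psmb8* was lowest under rapamycin. Mice A to D stood at 1.94, 1.79, 1.53 and 1.82 CPM in controls, at 1.597, 1.04, 1.12 and 1.26 on day 4, at 1.10, 1.41, 1.56 and 0.993 on day 6, at 2.02, 1.503, 2.25 and 1.61 on day 8, at 1.94, 3.24, 1.51 and 2.03 on day 13 and at 0.867, 1.22, 1.08 and 0.934 on rapamycin. Rapamycin mice lay below all controls and all day 13 mice, days 8 and 13 spread around the controls, and days 4 and 6 overlapped them at the lower end. The log2 fold change was -0.77 ± 0.17 against control (adjusted p = 0.0257) and -1.08 ± 0.25 against day 13 (adjusted p = 0.0098), and it was -0.49 on day 4 (adjusted p = 0.127) and -0.48 on day 6 (adjusted p = 0.0891). The call against control was lost without control mouse A, B or D, without rapamycin mouse A, C or D, and in the fit of all 24 mice. The gene *Gm20496* overlaps 14.7% of the exon bases of *Psmb8* on the opposite strand.

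Markers of several cell types were low in the same mice as *Psmb8*. Under rapamycin 2 of 4 oligodendrocyte markers (median of the 4, -0.51), 2 of 5 astrocyte markers (*Gfap* at -0.77 and *Aqp4*, a water channel, at -0.72) and 1 of 4 endothelial markers (*Cldn5*, a tight junction gene, at -0.68) were lower than in control. So was 1 of 7 neuron markers (median of the 7, -0.05), and 2 of the 7 were lower on rapamycin than on day 13. Of all genes, 2.31% were called lower than in control and 17.7% lower than on day 13. Of 8 genes of class I antigen processing, 4 were lower on rapamycin than in control, among them *Nlrc5* (-0.88), the class I transactivator, *H2-K1* (-0.71), a class I heavy chain, and *B2m* (-0.52), the class I light chain, and 5 were lower than on day 13. On day 4, when *Psmb8* was not called, *H2-K1* and *H2-D1*, both class I heavy chains, were lower than in control (-0.53 and -0.39). On day 6, 1 of the 8 was called lower, beside 3.81% of all genes, and on day 8 none was called. On day 13, 2 of the 8 were called higher (median of the 8, 0.29), beside 15.6%, and none lower, beside 11.3%. Among 9 interferon response genes tested, 1 was lower on rapamycin than in control, *Gbp3* at -1.04 ± 0.13 (adjusted p = 0.00136), and 3 were lower than on day 13. *Ifng* itself was too low to be tested. Of 10 microglia markers 8 were lower on rapamycin than in control and 7 lower than on day 13, and all 10 had negative values in both comparisons. Their summed level was 309 to 370 CPM in the controls, with 268 to 321 at day 4, 278 to 293 at day 6, 283 to 349 at day 8 and 338 to 503 at day 13, and 231 to 259 under rapamycin, where it overlapped no other group. On day 13, 2 microglia markers rose, *C1qb* by 1.05 ± 0.25 and *C1qa* by 0.72 ± 0.22 (adjusted p = 0.0131 and 0.0387), and none fell. The part of all these cells and genes in the *Psmb8* result was not tested.

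*Psmb9* was not called in any comparison. It ran from 1.03 to 1.20 CPM in controls, from 0.914 to 1.36 on day 4, from 0.675 to 1.24 on day 6, from 0.732 to 1.10 on day 8, from 0.682 to 1.17 on day 13 and from 0.770 to 1.04 under rapamycin. Each group overlapped the controls. Its exons overlap those of *Tap1*, a peptide transporter gene, by 5.8% on the opposite strand.

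Within a mouse, the inducible subunit was compared with the constitutive subunit whose place it takes, as the log2 ratio of their CPM per kb. As a percentage of its partner, *Psmb8* amounted to 1.88% of *Psmb5* in controls, 1.11% on day 6, 1.49% on day 13 and 1.19% under rapamycin. *Psmb9* amounted to 1.15% of *Psmb6* in controls, to 0.823%, 0.718% and 0.643% on days 6, 8 and 13, and to 1.03% under rapamycin. *Psmb10* amounted to 74.5% of *Psmb7* in controls, 64.7% on day 6, 69.2% on day 13 and 72.0% under rapamycin. On this scale the constitutive subunit was thus in excess in every group, by far for *Psmb5* and *Psmb6* and by less for *Psmb7*. The size of the excess depends on the annotated exon length, 3421 bases for *Psmb7* and 1705 for *Psmb10*. In CPM, without division by length, the control mean was 37.8 for *Psmb7* and 14.1 for *Psmb10*.

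In two-sided exact permutation tests over mice, 7 of the 18 ratios compared reached the smallest p that 70 arrangements of 4 against 4 mice allow, 0.0286. None passed 0.05 after adjustment over the 18, the 7 having an adjusted p of 0.0735. At this smallest p a ratio could pass only together with many others, so the adjusted result cannot decide about a single ratio. The log2 ratio of *Psmb9* to *Psmb6* was -6.51, -6.25, -6.51 and -6.48 in control mice A to D and -7.47, -7.35, -7.47 and -6.83 on day 13, a difference of -0.84 without overlap. On day 8 the difference was -0.68, and rapamycin mice lay 0.69 above day 13, again without overlap in either case. For *Psmb8* to *Psmb5* the mice lay below all controls on day 4 (-0.61), on day 6 (-0.75) and under rapamycin (-0.65). For *Psmb10* to *Psmb7* they did so on day 6 (-0.20), while on day 13 the difference was -0.11 with an exact p of 0.2.

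**Figure D4:**
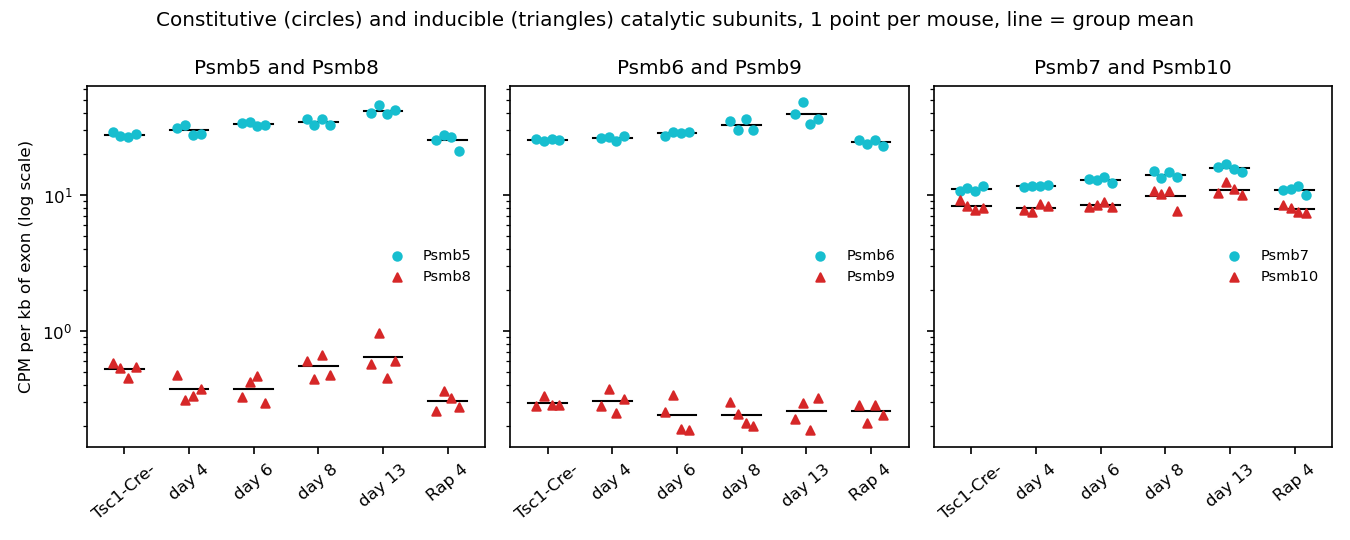
CPM per kb of exon (y axis, log scale) of each constitutive catalytic subunit (circles) and of the inducible subunit that replaces it (triangles), a point per mouse, lines at the group mean. *Psmb8* and *Psmb9* lie below 1 CPM per kb in every mouse, under *Psmb5* and *Psmb6* that climb to day 13, whereas *Psmb10* lies close under *Psmb7*.

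Among the 7 assembly factors, 0 were called on day 4 and day 6, 2 on day 8 and 4 on day 13 by edgeR, all higher, with 1, 2, 4 and 4 at an unadjusted p under 0.05. DESeq2 also called 0 on day 4 and day 6, and on day 8 it called *Psmg1* and *Psmg4* in addition. *Psmg4*, part of a chaperone pair of the 20S core, stood at 3.32, 3.15, 2.59 and 3.28 CPM in controls and at 4.90, 5.88, 4.35 and 5.05 on day 13, without overlap, a log2 fold change of 0.69 ± 0.14 (adjusted p = 0.00731), the second largest among called members. *Psmg1* rose by 0.58 ± 0.19 (adjusted p = 0.0461), with day 13 mice from 6.90 to 13.2 CPM and controls from 5.71 to 6.57. Its partner *Psmg2* stood at 0.12 ± 0.13 (adjusted p = 0.526), and *Psmg3*, the partner of *Psmg4*, at 0.40 ± 0.22 (adjusted p = 0.2), with mice A and B at 6.72 and 6.67 CPM and mice C and D at 4.06 and 3.63.

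Of the chaperones that assemble the 19S base, *Psmd9* rose by 0.25 ± 0.057 on day 8 and 0.34 ± 0.084 on day 13 (adjusted p = 0.0172 and 0.0162) and *Psmd5* by 0.19 ± 0.052 and 0.28 ± 0.088 (adjusted p = 0.0332 and 0.0428). *Psmd10* (gankyrin) was not called on day 13, at 0.11 ± 0.11 (adjusted p = 0.488), a value that turned to -0.01 with library totals. Under rapamycin *Psmg4*, *Psmg1* and *Psmd9* were lower than on day 13, by -0.64, -0.55 and -0.35 on the log2 scale (adjusted p = 0.00915, 0.0497 and 0.0286), and 0 of the 7 were called against control by edgeR or DESeq2 or had an unadjusted p under 0.05. A gene on the opposite strand, *Gm26745*, overlaps 25.5% of the exon bases of *Psmd9*. The day 13 calls of *Psmd5*, *Psmd9* and *Psmg1*, and those of *Psmd9* and *Psmg1* between rapamycin and day 13, were lost with library totals.

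The activators did not move together either. *Psme3*, which encodes the nuclear activator PA28 gamma, rose on day 6 (0.19 ± 0.043, adjusted p = 0.0133), day 8 (0.25 ± 0.050, adjusted p = 0.00963) and day 13 (0.39 ± 0.098, adjusted p = 0.0172), and was lower on rapamycin than on day 13 (-0.30 ± 0.099, adjusted p = 0.0406). *Psme4*, which encodes PA200, rose on day 13 by 0.20 ± 0.061 (adjusted p = 0.0349), from 116 to 124 CPM in controls to 134 to 148. The calls of *Psme3* and *Psme4* on day 13, and that of *Psme3* between rapamycin and day 13, were lost with library totals. *Psmf1*, which encodes the inhibitor PI31, stood at 0.05 ± 0.085 on day 13 (adjusted p = 0.672) and turned to -0.07 with library totals.

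*Psme1* and *Psme2*, which encode the interferon-inducible alpha and beta chains of PA28 (chr14:55578123-55581529 and chr14:55587441-55591113), differed from the constitutive genes. *Psme1* stood at 13.3, 15.0, 14.1 and 14.1 CPM in controls and at 12.7, 11.8, 11.1 and 11.4 on day 4, wholly below, and was the only member called lower on a day without rapamycin, at -0.26 ± 0.067 (adjusted p = 0.0484). That call was lost when any of 7 of the 8 mice was left out. On day 13 *Psme1* stood at -0.21 ± 0.096 (adjusted p = 0.122) and *Psme2* at 0.25 ± 0.11 (adjusted p = 0.11), neither of them called. On day 13 and with library totals *Psme1* was called lower, with *Psmc3ip*. The *Psme2* copy *Psme2b* remained under 1.1 CPM in all mice and was not called.

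The tissue-restricted core genes were barely detected. *Psma8* stood at 0.225 to 0.971 CPM over all mice and *Psmb11* at 0.0375 to 0.375 CPM, at or near the limit of counting, and *Psmb11* passed edgeR's filter on low counts in 3 of the 6 comparisons only. Neither was called. *Psmc3ip* stood at 2.45 to 2.93 CPM in controls and at 1.75 to 2.41 on day 13, lower in all 4 mice, with a log2 fold change of -0.42 ± 0.15 (adjusted p = 0.0703), and *Mlx* overlaps 21.2% of its exon bases on the opposite strand. In the F test over all 6 groups 39 of the 50 members differed, beside 41.9% of all 27110 genes tested. They were all 14 core genes, 16 of 17 cap genes, 2 of 3 immunoproteasome subunits, 4 of 7 assembly factors and 3 of 6 activators or inhibitors.

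Some partners of the proteasome outside the symbol rule rose as well. Of 11 other parts and partners, 1, 4, 4 and 8 were called higher on days 4, 6, 8 and 13, beside 2.61%, 6.24%, 8.41% and 15.6% of all genes. None was called lower, beside 1.56%, 3.81%, 4.87% and 11.3%, and 6 were lower on rapamycin than on day 13, beside 17.7%. On day 13 *Rad23b*, a shuttle that carries ubiquitin chains to the cap, rose by 0.63 ± 0.10, *Adrm1*, a ubiquitin receptor of the cap, by 0.49 ± 0.079, and *Ubqln1*, another shuttle, by 0.39 ± 0.10 (adjusted p = 0.00318, 0.0027 and 0.0201). Among genes that supply or activate ubiquitin, *Uba1*, the ubiquitin-activating enzyme, rose on day 13 by 0.44 ± 0.057 and *Ubb*, a polyubiquitin gene, by 0.26 ± 0.075 (adjusted p = 0.0011 and 0.0285), and both were lower on rapamycin than on day 13, at -0.54 and -0.36 on the log2 scale (adjusted p = 0.000834 and 0.00833). Under rapamycin *Rps27a*, a fusion of ubiquitin with a ribosomal protein, stood 0.20 ± 0.050 above control (adjusted p = 0.0456), while 0 of the 11 partners were called in that comparison by edgeR (1 at an unadjusted p under 0.05).

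Of 9 genes around NFE2L1, 1, 1, 3 and 6 were called higher on days 4, 6, 8 and 13, beside 2.61%, 6.24%, 8.41% and 15.6% of all genes. *Nfe2l1* itself rose on day 8 (0.32 ± 0.065, adjusted p = 0.00934) and day 13 (0.41 ± 0.061, adjusted p = 0.00195), and stood at 0.05 ± 0.038 on day 6 (adjusted p = 0.501). The largest called changes of the list on day 13 were those of *Mafk* and *Mafg*, small Maf partners of NFE2L1, at 1.01 ± 0.22 and 0.46 ± 0.12, and of *Vcp*, the ATPase that extracts NFE2L1 from the endoplasmic reticulum, at 0.43 ± 0.061 (adjusted p = 0.00992, 0.0172 and 0.00156). *Nfe2l2*, a related factor, fell on day 6 by 0.34 ± 0.081 (adjusted p = 0.0183). Under rapamycin none of the 9 was called against control by edgeR (2 at an unadjusted p under 0.05), and 6 were lower than on day 13, beside 17.7% of all genes.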

How the data were processed

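Hippocampal RNA of 24 mice was sequenced with TruSeq Stranded Total RNA and Ribo-Zero. The deposited values are whole-number counts of reads per gene, which the authors made with cutadapt 1.16.5, STAR 2.7.2b and featureCounts 1.6.4 on mm10, per the submitters' processing notes. The strand setting of the counting is not given in the sources used here. Names and exon lengths came from GENCODE M21, which held 55144 of 55385 identifiers (54487 with the same version).

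Counts were scaled by TMM factors and each comparison of 4 against 4 mice was fitted over all genes passing filterByExpr with edgeR 4.0.16's quasi-likelihood test (R 4.3.3), with Benjamini-Hochberg adjustment over all genes tested. An F test covered all 6 groups. CPM per kb divides CPM by the joined length of all annotated exons of a gene, whether or not they are used in this tissue. An offset of 0.01 CPM entered the log2 scores. The ratios of catalytic subunits were taken from counts per kb without an offset. On simulated data edgeR recovered 91% of 200 changed genes in a 4 against 4 comparison of 25168 genes and called 17 unchanged ones. Those 200 genes had a mean absolute log2 fold change of 0.996, where core and cap genes reached at most 0.82 on day 13. Recovery at the smaller changes reported here was not tested. DESeq2 1.42.0, other scalings, filters and fits, and leaving out each mouse were the alternatives. Named with values were the catalytic and immunoproteasome subunits, activators, inhibitor, assembly factors, tissue-restricted genes and *Psmc3ip*, the 3 largest called rises and falls of each comparison, members called most often against control, and up to 3 called genes of each other list; *Psma6*, *Psmb1*, *Psmc1*, *Psmc5*, *Psmc6*, *Nfe2l1* and *Nfe2l2* were named after their values were seen. The genes and lists were chosen with earlier results of these data known. No 2 mice of a group were alike within sampling noise (lowest chi-square per degree of freedom 5.43). The precision of a value depends on total counts per mouse, 28208561 to 126435936. Counts over the list of ubiquitin genes are not reported here.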

Additional observations from a re-analysis of the deposited data

Results flagged for a closer look

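In 8 of 180 groups of 4 mice a single mouse stood far from the other 3, where chance gives about 1 in 20. In day 13 mouse B, the deepest library, *Psmd6* stood at 95.6 CPM (others 69.1 to 73.1) and *Psmb4* at 100.8 CPM (others 79.95 to 82.0). In controls, *Psmb9* stood at 1.20 CPM in mouse B (others 1.03 to 1.04), *Psmd10* at 7.74 CPM in mouse D (others 6.80 to 6.90) and *Psmd3* at 63.6 CPM in mouse A (others 62.0 to 62.2). *Psmg2* stood at 9.22 CPM in day 4 mouse B (others 8.18 to 8.30). Under rapamycin, *Psme3* stood at 49.3 CPM in mouse C (others 52.3 to 52.7) and *Psmg3* at 3.13 CPM in mouse D (others 4.35 to 4.44).

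For 2 genes all mice of day 4 lay below the control mean and all mice of day 8 above it, and the difference was not tested. *Psmg2* lay 0.462 CPM above the control mean on day 8, and *Psma8* lay 0.1799 CPM above it. Neither gene was called on either day.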

How the results depend on the processing

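The number of members called was 3, 19, 26 and 37 on days 4, 6, 8 and 13, 1 for rapamycin against control and 35 for rapamycin against day 13. In the fit of all 24 mice it was 0 on day 4, 1 on day 6 and 0 for rapamycin against control. At an adjusted p under 0.01 it was 0, 6 and 14 on days 4, 6 and 8 and 0 for rapamycin against control. With the fold minimum it was 0 on days 4, 6 and 8, 16 on day 13 and 19 for rapamycin against day 13, and with no filter on low counts 1 on day 4. Leaving out each mouse in turn gave 0 to 3 on day 4, 12 to 22 on day 6 (12 without day 6 mouse C), 19 to 29 on day 8, 26 to 38 on day 13, 0 to 1 for rapamycin against control, 30 to 36 for rapamycin against day 13 and 37 to 42 in the F test. The cause was not tested. Letters name different animals and do not pair the mice: deviations of same-letter mice correlated at -0.121 to 0.0883, and with the replicate letter as a block 1, 14, 20 and 33 members were called on days 4, 6, 8 and 13. Of 2324 values of single genes and ratios, 2177 kept their direction and side of the threshold, 126 lost it, 18 gained it, 3 moved and 0 reversed. Depth limits *Psmb8* and *Psmb9*, with as few as 25 and 24 counts in a mouse.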
